A study of Mus musculus with 6 samples.

Results

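The genes described here encode the 5 NF-kB subunits (Nfkb1, Nfkb2, Rel, Rela and Relb), the IkB inhibitors (Nfkbia, Nfkbib and Nfkbie), the nuclear IkB protein BCL3 (Bcl3) and the ubiquitin-editing enzyme A20 (Tnfaip3). They were taken by name, and all 10 were found among the 20938 genes of the deposited table. The values are FPKM, a level per gene length and per fragment sequenced, from RNA sequencing of RAW264.7, a mouse macrophage-like tumour line that can be driven to form osteoclasts. Cells in all 6 samples were put under osteoclast induction. The control group (DMSO, n = 3) received the solvent alone, and the other group (NBIF, n = 3) received the plant isoflavone neobavaisoflavone at 8 µM. Neither the inducing agent nor the time of treatment is stated in the labels, which name bone marrow as the tissue and macrophage as the cell type. Every sample comes from this single line. The labels do not say that replicates were separate cultures, and p-values describe the spread of these 6 samples, part or all of which may be technical.

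NF-kB is a family of dimeric transcription factors held in the cytoplasm by IkB proteins. Receptors such as RANK, which starts osteoclast formation, and the TNF receptors activate the IkB kinase (IKK) complex, which marks IkB for destruction and frees the dimers to enter the nucleus. Among the genes that NF-kB then switches on are those of its own inhibitors, so that IkB alpha and A20 end the response they are part of. Nfkb1 and Nfkb2 encode precursors that are cut to DNA-binding subunits without an activation domain of their own, and mice lacking both genes form no osteoclasts.

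With NBIF, the subunit genes differed little from DMSO, while 3 of the inhibitor and feedback genes changed at an adjusted p under 0.05 by limma, a linear model fitted across all genes. Nfkbib, which encodes IkB beta, rose 1.37-fold. Tnfaip3 fell 1.47-fold and Bcl3 fell 1.41-fold in mean FPKM. All 10 genes passed the filter on low values, and 3 of the 10 changed, where 18.6% of all 9936 genes tested did. In the same fit 10.5% of all genes were higher and 8.08% lower. The DMSO and NBIF values did not overlap for 5 of the 10 genes, against 39.0% of all genes tested. The median log2 change of the 10 genes was -0.02, beside 0.04 for all genes tested.

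The level of each transcript, which FPKM gives per length, spanned a wide range. The order of the means over 6 samples was Nfkbia (104 FPKM), Nfkb2 (96.0), Nfkb1 (85.4), Rel (31.8), Tnfaip3 (20.7), Relb (15.9), Nfkbib (15.5), Rela (13.9), Nfkbie (12.5) and Bcl3 (4.79). Neighbours in this order whose values overlapped were Nfkbia with Nfkb2, Tnfaip3 with Relb, Relb with Nfkbib, and Nfkbib with Rela. The other neighbours were separate in their ranges over the 6 samples. Relb was above Nfkbib in 3 of 6 samples, and these were the DMSO samples.

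In GRCm38 (GENCODE M21) the subunit genes that share no exon base with another gene are Nfkb1 on chromosome 3 (135584655 to 135691547), Rel on chromosome 11 (23736847 to 23770970), Rela on chromosome 19 (5637483 to 5648130) and Relb on chromosome 7 (19606217 to 19629438). The same holds for the inhibitor genes Nfkbia on chromosome 12 (55489410 to 55492647) and Nfkbie on chromosome 17 (45555703 to 45563169).

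**Figure D1:**
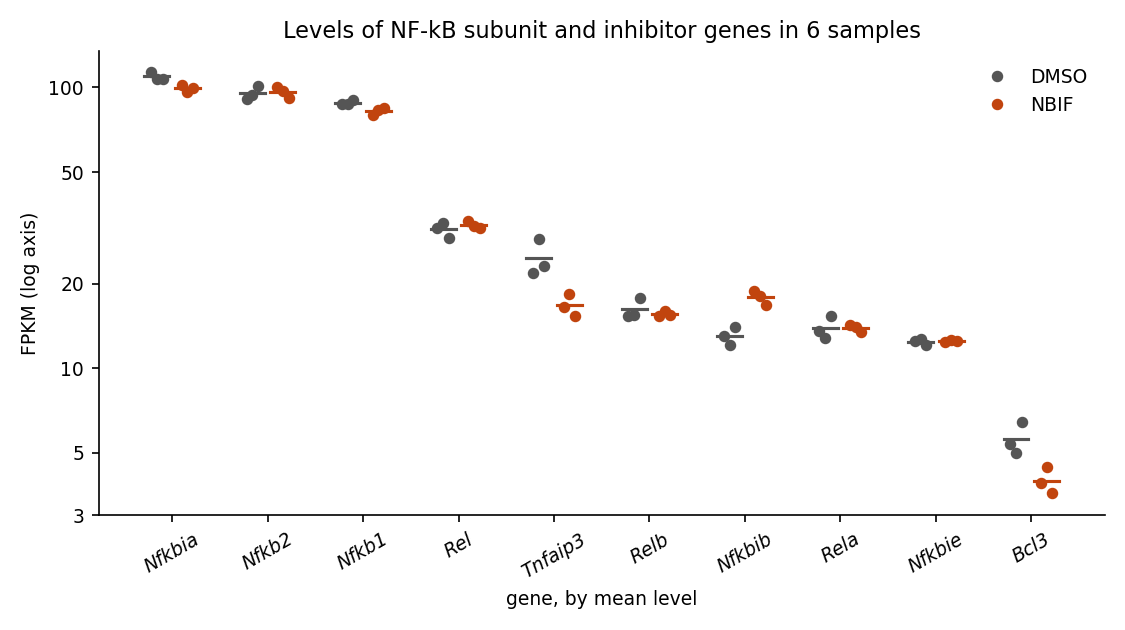
FPKM (log axis) of each gene in the 3 DMSO and 3 NBIF samples, ordered by mean level; points are samples and bars are group means. The groups are apart for Nfkbia, Nfkb1, Tnfaip3, Nfkbib and Bcl3 and overlap for Nfkb2, Rel, Relb, Rela and Nfkbie.

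Among the subunits, Rela encodes the main activating partner of the classical dimer. Rela was at 13.5, 12.8 and 15.3 FPKM in DMSO 1, 2 and 3 and at 14.2, 14.0 and 13.5 FPKM in NBIF 1, 2 and 3. The NBIF values lay inside the DMSO range, and the log2 change was 0.00 ± 0.07 (SE; limma adjusted p = 0.991), with a 95% interval of -0.16 to 0.17. Rel encodes c-Rel, an activating subunit found mostly in blood cells. Rel was at 31.6, 32.9 and 29.1 FPKM in DMSO and at 33.4, 32.0 and 31.6 FPKM in NBIF, groups that overlapped. Its log2 change was 0.05 ± 0.06 (adjusted p = 0.593; interval -0.08 to 0.19).

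Relb encodes the activating partner of the non-canonical pathway, which pairs with the processed Nfkb2 product. Relb had 15.4, 15.5 and 17.8 FPKM in DMSO and 15.4, 16.01 and 15.5 FPKM in NBIF, with DMSO 3 above the rest. The log2 change was -0.05 ± 0.07 (adjusted p = 0.671; interval -0.20 to 0.11). Nfkb2 had 91.2, 94.1 and 101 FPKM in DMSO and 101, 97.1 and 91.4 FPKM in NBIF. The groups covered nearly the same range, and the log2 change was 0.01 ± 0.06 (adjusted p = 0.899; interval -0.12 to 0.14). Of the exon bases of Nfkb2 (chromosome 19, 46304320 to 46312385, plus strand), 18.1% are shared with opposite-strand genes, among them Psd, which was at 1.69 ± 0.226 and 1.87 ± 0.179 FPKM.

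Nfkb1, the gene of the classical DNA-binding subunit, had 87.2, 87.5 and 90.0 FPKM in DMSO and 79.7, 83.1 and 84.7 FPKM in NBIF. Every NBIF sample was below every DMSO sample, by a gap of 2.53 FPKM between the groups. The log2 change was -0.10 ± 0.04 (adjusted p = 0.174; interval -0.20 to 0.01), so the difference did not pass the test. None of the subunit intervals reached a log2 change of 0.25 in either direction, although a p that misses the threshold does not show that the groups were equal.

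Nfkb2 and Nfkb1 made up most of the subunit transcripts. Of the summed FPKM of the 5 subunits, which was 245 ± 7.66 (SD, n = 3) in DMSO and 241 ± 3.62 (n = 3) in NBIF, Nfkb2 held 39.0% ± 0.919 in DMSO and 40.0% ± 1.35 in NBIF. Nfkb1 held 36.0% ± 0.504 and 34.3% ± 1.52. The share of Rel was 12.8% ± 1.13 and 13.4% ± 0.258, that of Relb 6.61% ± 0.362 and 6.49% ± 0.144, and that of Rela 5.67% ± 0.377 and 5.77% ± 0.0798. The exact two-sided permutation test over all 20 ways of assigning the samples cannot give a p below 0.10 here, so it could not have passed the threshold. For the 5 shares this exact test gave p = 0.20 to 0.80, each with an adjusted p of 0.80 over 6 quantities. The transcript share of Rela says nothing of protein amounts, which were not measured.

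**Figure D2:**
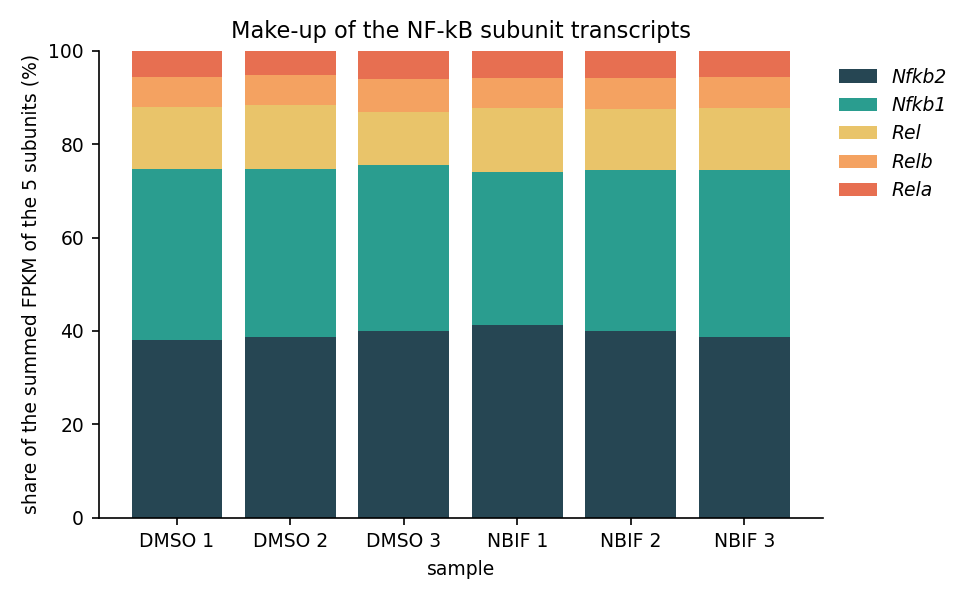
Share of each subunit gene in the summed FPKM of the 5 subunits, as stacked bars adding to 100% for each of the 6 samples. Nfkb2 and Nfkb1 hold the largest shares in every sample, with Rela between 5.29% and 6.05%.

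Of the IkB inhibitor genes, Nfkbib rose and the other two did not pass the test. Nfkbia encodes IkB alpha, the rapidly resynthesised inhibitor of the classical dimer. Nfkbia had 114, 107 and 108 FPKM in DMSO and 102, 96.1 and 99.7 FPKM in NBIF. Every NBIF sample was below every DMSO sample, and the log2 change was -0.14 ± 0.05 (interval -0.25 to -0.03; limma adjusted p = 0.0708). After median-ratio scaling the change was -0.18 and passed the test (adjusted p = 0.0327). In the other 15 of 16 alternatives Nfkbia did not pass, with adjusted p up to 0.215.

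Nfkbib encodes IkB beta, an inhibitor that in macrophages also has a nuclear role at some target genes. Nfkbib was at 13.1, 12.1 and 14.1 FPKM in DMSO and at 18.9, 18.1 and 16.8 FPKM in NBIF. The lowest NBIF sample was 2.70 FPKM above the highest DMSO sample. The log2 change was 0.43 ± 0.07 (SE; limma adjusted p = 0.00513; interval 0.26 to 0.59). Nfkbib passed the test in each of 16 alternatives, with adjusted p from 0.00311 to 0.0269.

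Nfkbib lies on the minus strand of chromosome 7 (28758251 to 28767512 in GRCm38, GENCODE M21). There 16.4% of its exon bases are shared with genes of the opposite strand, Sirt2 and Ccer2. The labels do not state whether counting used strand. If it did not, reads from the shared stretch cannot be assigned to either gene. Sirt2, a deacetylase gene, was at 40.1 ± 2.27 FPKM with the solvent and at 42.0 ± 1.02 FPKM with NBIF, a difference that did not pass (adjusted p = 0.430). Ccer2 was listed at 0 in DMSO and had a mean of 0.0172 FPKM in NBIF.

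Nfkbie encodes IkB epsilon, an inhibitor with a slower feedback role. Nfkbie had 12.5, 12.7 and 12.1 FPKM in DMSO and 12.5, 12.6 and 12.5 FPKM in NBIF. The 6 samples lay within 12.1 to 12.7 FPKM, and the log2 change was 0.01 ± 0.05 (adjusted p = 0.927; interval -0.11 to 0.13).

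Nfkbib made up 9.40%, 9.15% and 10.5% of the summed FPKM of these 3 genes in DMSO 1, 2 and 3 and 14.2%, 14.3% and 13.03% in NBIF 1, 2 and 3. Nfkbia made up 81.6%, 81.2% and 80.4% in DMSO and 76.5%, 75.8% and 77.3% in NBIF. These shares rest on the same values as the changes above and were not tested. The summed IkB transcripts stood to the summed subunit transcripts at a ratio of 0.551 ± 0.0287 (n = 3) in DMSO and 0.539 ± 0.0134 (n = 3) in NBIF, with an exact permutation p of 0.70 (adjusted p = 0.80) in the same design. That ratio is dominated by Nfkbia. With each gene weighted equally on the log2 scale the IkB genes were 0.12 higher relative to the subunits in NBIF (exact permutation p = 0.10, the smallest this design allows). This difference rests on Nfkbib, whose log2 change was 0.43, beside -0.14 for Nfkbia and 0.01 for Nfkbie. It is no separate evidence of a rise of the IkB genes as a group.

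Tnfaip3 encodes A20, which edits ubiquitin chains on receptor adaptors and so ends IKK activation. It lies on chromosome 10 (19000910 to 19015657, minus strand, GRCm38) and shares no exon base with another gene in GENCODE M21. Tnfaip3 was at 21.9, 28.9 and 23.1 FPKM in DMSO and at 16.6, 18.4 and 15.4 FPKM in NBIF. Every NBIF sample was below every DMSO sample, and DMSO 2 was the highest. The log2 change was -0.52 ± 0.11 (SE; limma adjusted p = 0.0115; interval -0.76 to -0.28). It ranged from -0.59 to -0.40 over 16 alternatives and passed in all of them, with a highest adjusted p of 0.0443.

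Bcl3 encodes a nuclear IkB protein that binds the dimers of the Nfkb1 or Nfkb2 products on DNA and can activate or repress transcription. It lies on chromosome 7 (19808462 to 19822770, minus strand, GRCm38), where 6.51% of its exon bases are shared with an antisense transcript. Bcl3 was at 5.39, 4.99 and 6.43 FPKM in DMSO and at 3.90, 4.45 and 3.59 FPKM in NBIF. The groups did not overlap, by a gap of 0.543 FPKM. The log2 change was -0.40 ± 0.10 (SE; limma adjusted p = 0.0257; interval -0.63 to -0.18). Leaving out a single sample ended this call in 4 of 6 cases: DMSO 1 (adjusted p = 0.0592), DMSO 3 (0.0554), NBIF 1 (0.0792) and NBIF 3 (0.0868). So did testing with no filter on low values (0.0709). The log2 change was -0.24 on the log2(FPKM + 5) scale.

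**Figure D3:**
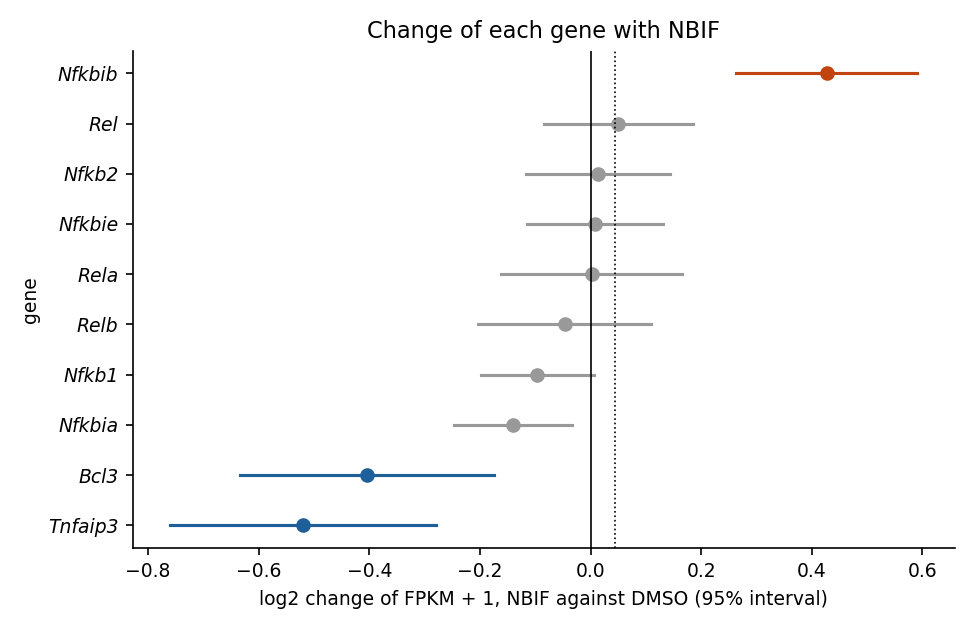
Log2 change of FPKM + 1 with NBIF for each gene (points) with its 95% interval (lines); the dotted line is the median of all genes tested, 0.04. Nfkbib (0.43) is above 0, Bcl3 (-0.40) and Tnfaip3 (-0.52) are below it, and grey genes did not pass the test.

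NF-kB dimers bind kB sites, and the feedback genes are known to carry them near their starts. The RefSeq promoter table (GRCm38.p6, 250 bases before to 50 after each start) held 8 of the 10 genes, with 11 windows in all. Nfkb1 and Relb had no entry. Both strands were searched with the RelA-type kB consensus of 10 bases, with a stricter kB consensus of the same length, and with the AP-1 motif TGANTCA. The stricter consensus is a special case of the RelA-type one, so each of its matches is also a RelA-type match. The RelA-type consensus was in 8 of 11 windows (72.7%), belonging to Nfkb2, Rel, Nfkbia, Nfkbie, Bcl3 and Tnfaip3, against 11.2% of all 32851 windows. Nfkb2 supplied 3 of these windows, and a match in its overlapping windows is counted more than once. By gene, 6 of 8 (75.0%) had a match, against 12.6% of all 27025 genes. The stricter consensus was in the same number of windows, against 4.51% of all. Neither form was in the windows of Rela and Nfkbib. The AP-1 motif was in 3 of the 11 windows (27.3%), those of Nfkb2, Nfkbie and Tnfaip3, against 7.81% of all. A match is a run of letters and no evidence of binding, and these genes were assembled as a known NF-kB feedback group.

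The matches are shown for the genes that fell (Tnfaip3, Bcl3) and, for comparison, for genes with a match that did not pass the test, each as 30 bases read 5′ to 3′ on the strand of the gene with the RelA-type match in capitals. Positions are those of the first capital, counted from the RefSeq start, whose first base is 1 and is preceded by base -1. Matches near the other starts of Nfkb2 are not printed.
Tnfaip3, from base -125, chr10:19015516-19015545, minus strand, in an intron of GENCODE: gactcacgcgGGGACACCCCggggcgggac
Tnfaip3, from base -12, chr10:19015403-19015432, minus strand, in an intron of GENCODE: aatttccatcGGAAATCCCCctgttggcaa
Bcl3, from base 3, chr7:19822734-19822763, minus strand, in a UTR of GENCODE: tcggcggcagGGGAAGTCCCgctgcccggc
Nfkbia, from base -29, chr12:55492657-55492686, minus strand, upstream: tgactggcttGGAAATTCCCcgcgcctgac
Nfkbie, from base -106, chr17:45555584-45555613, plus strand, upstream: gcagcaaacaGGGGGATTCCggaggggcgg
Rel, from base -92, chr11:23771041-23771070, minus strand, upstream, with overlapping matches: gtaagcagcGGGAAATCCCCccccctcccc
Nfkb2, from base -39 of its first start, chr19:46304689-46304718, plus strand, in a UTR of GENCODE, with overlapping matches: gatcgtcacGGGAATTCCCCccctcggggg
Nfkb2, from base -11 of its first start, chr19:46304716-46304745, plus strand, in a UTR of GENCODE: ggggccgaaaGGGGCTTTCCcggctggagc

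Set beside the values, a match near the start went with different responses. Tnfaip3 (log2 change of -0.52) and Bcl3 (-0.40) fell, Nfkbia (-0.14) was lower without passing the test, and Nfkbie (0.01), Rel (0.05) and Nfkb2 (0.01) stayed near their DMSO values. Of the genes whose windows held no match, Nfkbib rose by 0.43 on the log2 scale and Rela had a change of 0.00. The bases searched before the RefSeq start of Nfkbib (chr7:28766645-28766894, minus strand) lie inside its GENCODE span, which begins at 28767512 on that strand. The stretch before that GENCODE start was not searched.

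**Figure D4:**
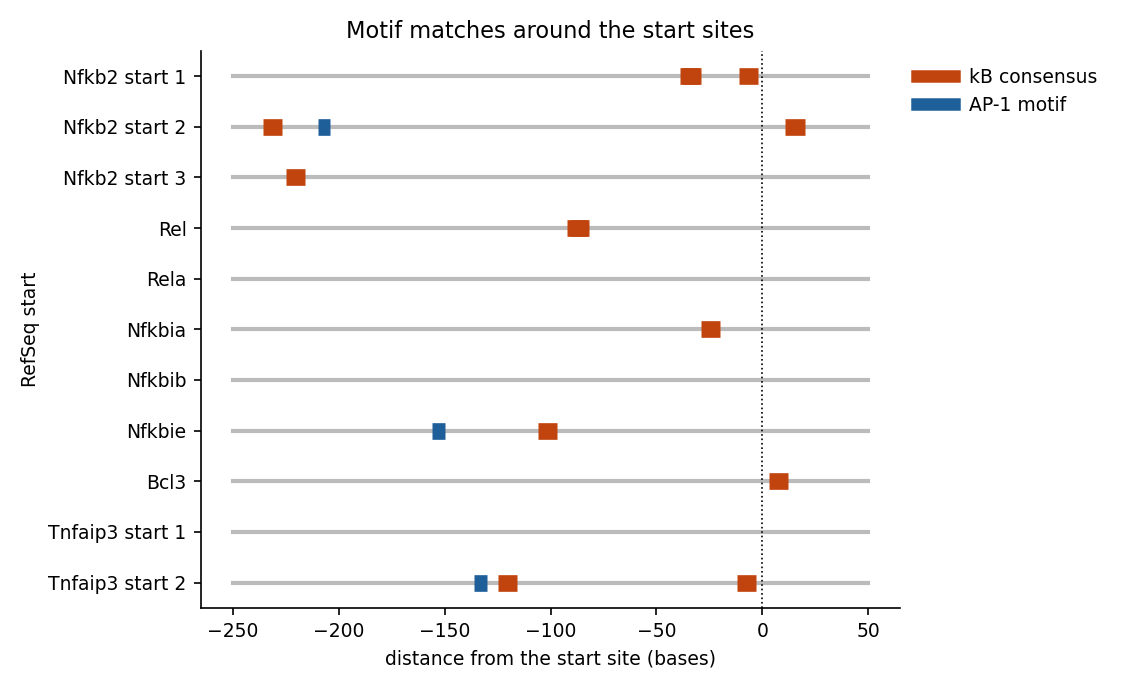
Matches to the RelA-type kB consensus (orange) and the AP-1 motif (blue) between 250 bases before and 50 after each RefSeq start of 8 genes; the x axis is the distance from the start in bases. The windows of Rela, Nfkbib and one start of Tnfaip3 hold neither, and overlapping windows of Nfkb2 share a match.

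For each gene that changed, the 3 other tested genes with the most similar values were taken by the root mean square difference of log2(FPKM + 1), centred on each gene's mean over 6 samples. They were Dner, Clec1b and Igf2bp2 for Tnfaip3, at differences of 0.0702, 0.0778 and 0.0812, where the median over all genes was 0.324. Mean FPKM in DMSO and NBIF was 6.17 and 3.90 for Dner, 1.67 and 0.743 for Clec1b, and 3.20 and 1.89 for Igf2bp2. The log2(FPKM + 1) scale understates changes at such low levels, so likeness on it is not likeness in fold. Those nearest to Nfkbib were Plxnd1, Smim14 and Grik5 (0.0274, 0.0355 and 0.0360, median 0.225). Bcl3 was nearest to Ttyh3 (0.0426), to the AP-1 gene Junb (0.0486) and to Pde2a (0.0628), with a median of 0.269. Junb went from 58.1 ± 4.35 to 44.4 ± 2.18 FPKM. These genes were picked for their likeness, so their changes carry no test here.

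Among 9 other IkB proteins and modulators of NF-kB, all tested, 1 fell and 8 did not pass (11.1% called, beside 18.6% of all genes; median log2 change of 0.10). The gene that fell was Nfkbid, which encodes a nuclear IkB protein related to BCL3. Nfkbid was at 27.9, 20.7 and 28.7 FPKM in DMSO and at 15.8, 17.8 and 16.6 FPKM in NBIF. Every NBIF sample was below every DMSO sample, with a log2 change of -0.58 ± 0.12 (limma adjusted p = 0.0102). Nfkbiz, named here after its values were seen, went from 4.48 ± 0.389 to 3.40 ± 0.467 FPKM. Its log2 change of -0.32 just missed the threshold (limma adjusted p = 0.0502). The number called on this list was 3 without DMSO 3 and 2 without NBIF 1, and it was 2 with a pseudocount of 5, median-ratio scaling, quantile normalization, both other variance priors and the replicate block.

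Of 10 tested genes of the IKK complex and its upstream kinases, 1 rose, 1 fell and 8 did not pass (median 0.09), beside 18.6% called among all genes. Ikbkg, which encodes the regulatory IKK subunit NEMO, fell by 0.19 on the log2 scale (adjusted p = 0.0464), with means of 11.4 ± 0.257 and 9.84 ± 0.225 FPKM. It no longer passed when DMSO 1 (adjusted p = 0.134), DMSO 2 (0.0984), NBIF 1 (0.116), NBIF 2 (0.0954) or NBIF 3 (0.144) was left out, when samples were rescaled to the same sum (0.0615) or with no filter (0.0574). Ikbke, an IKK-related kinase gene, rose by 0.41 on the log2 scale (adjusted p = 0.0139), with means of 0.826 ± 0.0394 and 1.44 ± 0.192 FPKM. It was below 1 FPKM in every DMSO sample. Its mean over all samples, 1.13 FPKM, reached the filter only through the NBIF values, so its call depends on the group where it was high. At that low level the size depended on the pseudocount, being 0.73 at 0.1 and 0.14 at 5, and the adjusted p was 0.0514 when NBIF 1 was left out. The count on this list fell to 0 without NBIF 1 and to 1 without any other sample but DMSO 3, as it did under 4 further settings (no filter, a filter at 5 FPKM, the same sum per sample, the replicate block).

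Of 22 genes of ubiquitin enzymes and adaptors of the NF-kB pathway, 3 rose, 1 fell and 18 did not pass (18.2% called, beside 18.6% of all genes; median 0.08). Birc2, which encodes the ubiquitin ligase cIAP1, fell by 0.29 ± 0.05 on the log2 scale (adjusted p = 0.00693), with means of 25.8 ± 0.412 and 20.9 ± 0.777 FPKM. N4bp1, a suppressor of NF-kB activation, rose from 43.2 ± 0.378 to 51.7 ± 1.64 FPKM (0.25 ± 0.05, adjusted p = 0.00756). The A20 partner genes Itch (0.18, adjusted p = 0.0426) and Tax1bp1 (0.18, adjusted p = 0.0301) also rose, by small amounts. Itch did not pass when DMSO 1 (adjusted p = 0.0956), DMSO 3 (0.0603), NBIF 1 (0.103), NBIF 2 (0.119) or NBIF 3 (0.122) was left out. It also missed the threshold after median-ratio scaling (0.0987), quantile normalization (0.0532), with no filter (0.0507) or with no variance trend (0.0656). Tax1bp1 did not pass when DMSO 1 (adjusted p = 0.0613), DMSO 2 (0.0523), NBIF 1 (0.103), NBIF 2 (0.0988) or NBIF 3 (0.0591) was left out, after median-ratio scaling (0.0712) or with no variance trend (0.0606). The count on this list was 2 without DMSO 1 as well as without any 1 NBIF sample, and 6 without DMSO 3.

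Of 9 tested receptor and adaptor genes that signal to NF-kB, 3 rose and 6 did not pass (33.3% called, beside 18.6% of all genes; median 0.03). Tnfrsf11a, the RANK gene, belongs to those that did not pass, at 178 FPKM in both groups (adjusted p = 0.989). Cd40, a costimulatory receptor gene, rose by 1.36 ± 0.18 on the log2 scale (adjusted p = 0.00155; 0.77 at a pseudocount of 5), with means of 2.40 ± 0.837 and 7.60 ± 1.16 FPKM. Tnfrsf1b, which encodes TNF receptor 2, rose from 8.03 ± 0.632 to 10.4 ± 0.303 FPKM (0.34 ± 0.07, adjusted p = 0.0115). Tlr2, a receptor for bacterial lipoproteins, had 9.35 ± 0.173 and 11.0 ± 0.566 FPKM (0.22, adjusted p = 0.0392). Leaving out any 1 sample ended the call of Tlr2. Its adjusted p was then 0.117, 0.0718 and 0.0537 for DMSO 1, 2 and 3 and 0.140, 0.0690 and 0.0871 for NBIF 1, 2 and 3. It also missed the threshold with no filter (0.0597) and after median-ratio (0.0750) or quantile scaling (0.0976).

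**Figure D5:**
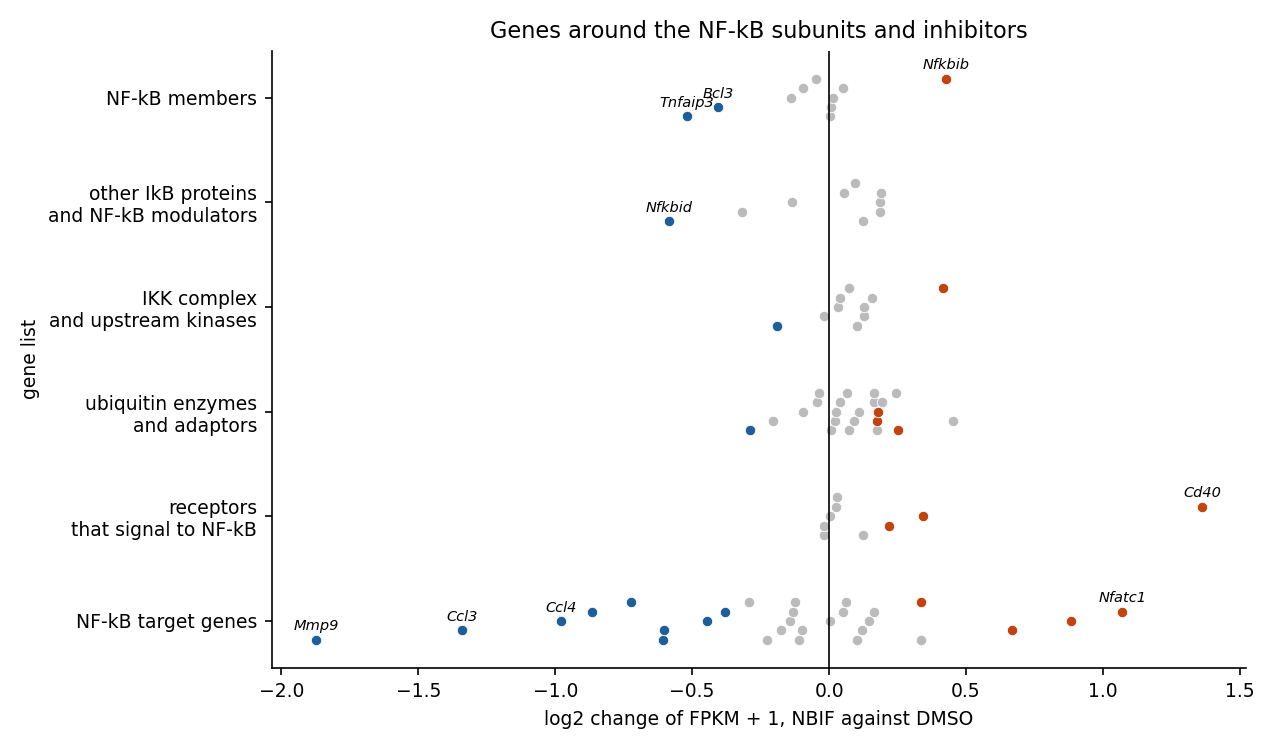
Log2 change of FPKM + 1 with NBIF for every tested gene of the 10 subunit, IkB and feedback genes and of 5 lists around them; each point is a gene, orange if higher and blue if lower at an adjusted p under 0.05, grey otherwise. The target genes spread from -1.87 (Mmp9) to 1.07 (Nfatc1), while the 10 genes lie between -0.52 and 0.43.

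The 29 tested of 43 listed NF-kB target genes, which encode mostly cytokines, adhesion and survival proteins, moved in both directions. Of these, 4 rose, 9 fell and 16 did not pass (44.8%, beside 18.6% of all genes; median -0.13). This list, like the others, was chosen with earlier results of these data known, so its share of calls carries no test. The largest changes were those of the metalloprotease gene Mmp9 (-1.87), also on the osteoclast marker list, the chemokine genes Ccl3 (-1.34) and Ccl4 (-0.98) and the osteoclast transcription factor gene Nfatc1 (1.07), likewise an osteoclast marker. Ccl4 went from 8.06 ± 2.58 to 3.55 ± 1.01 FPKM (adjusted p = 0.0180), with -0.60 on the log2 scale at a pseudocount of 5, and it did not pass with no filter (0.0646) or under a robust variance prior (0.0573). Also called, and named here after their values were seen, were Icam1, an adhesion receptor gene that rose from 64.8 ± 2.19 to 104 ± 4.15 FPKM (adjusted p = 9.60e-05), and Clec4e, a lectin receptor gene that fell from 66.0 ± 7.38 to 39.5 ± 2.58 FPKM (adjusted p = 0.000894). The genes on this list have other regulators as well, and 14 of them, Il6 and Nos2 among these, lay below the filter.

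Macrophage transcripts fell in the same NBIF samples. Of 9 tested macrophage markers (10 listed), 8 fell, where 8.08% of all genes tested did, and their summed level was 2321 to 2494 FPKM in DMSO and 1412 to 1472 FPKM in NBIF. Of 9 tested osteoclast markers (10 listed), 4 fell and 1 rose (10.5% of all genes rose), with sums of 7604 to 8199 and 6023 to 6828 FPKM. Their part in the falls of Tnfaip3, Bcl3 and Nfkbid was not tested, and in bulk RNA fewer cells of a type and less RNA per cell cannot be told apart. The macrophage marker Mertk and the osteoclast marker Calcr were under 1 FPKM in every sample, while Csf1r, Cd68, Acp5 and Ctsk were each at 319 FPKM or more in every sample. Markers of T and B cells summed to at most 0.236 FPKM in a sample, those of neutrophils and mast cells to at most 0.309, those of fibroblasts and osteoblasts to at most 1.43 and those of epithelium and endothelium to at most 0.198, with Ms4a1, Elane, Mcpt4, Krt8, Krt18 and Cdh1 at 0 in all 6.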

How the data were processed

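The authors deposited 1 table of FPKM values, indexed by gene symbol. Tools listed by the submitters' processing notes, with no role for any, are DESeq2 1.20.0, featureCounts 1.5.0-p3, HISAT2 2.0.5, fastp and CASAVA 1.8. The notes list a human genome build although the symbols are those of mouse genes, and it is not known which build the values rest on. The gene lengths, annotation and strand setting were not stated. FPKM depends on that length and on the total over all genes.

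Column sums lay between 484603 and 494172 FPKM. Low values put the relative depth at 0.886 to 1.09 times that of DMSO 1. Each of these estimates rested on only 16 to 29 genes, of 305 to 354 with low values in both samples. Whole reads were not recovered and total depth is unknown, so no counting interval is given.

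A gene was tested if its mean over 6 samples reached 1 FPKM. The test was limma 3.58.1 (R 4.3.3) on log2(FPKM + 1), two-sided, with a variance trend, and p-values were adjusted by Benjamini-Hochberg across the 9936 genes, at a threshold of 0.05. Log2 changes on this scale understate those of low genes, whereas folds were taken directly from mean FPKM. Of the genes tested 1850 were called, 1047 higher and 803 lower (56.6% higher), and after median-ratio scaling 705 and 1003 (41.3% higher). Shares and the ratio were tested by exact permutation. The fit was also run on simulated data, with an outcome that is not reported here.

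The 10 genes and all lists were chosen with earlier results of these data known. Named genes are the 10, up to 4 passing genes with the largest changes in each of 5 lists, and the 3 genes of most similar pattern for each of up to 3 that passed. Tnfrsf11a, Nfkbiz, Icam1 and Clec4e, the markers and the opposite-strand partners were named outside that rule. Gene positions come from GENCODE M21 (GRCm38) and promoter sequences from RefSeq (GRCm38.p6), neither used to make the values. The planned description of protein motifs was not run. Alternatives were other pseudocounts, filters, scalings and variance priors, a replicate block and leaving out each sample.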

Additional observations from a re-analysis of the deposited data

How the results depend on the processing

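Tnfaip3 and Nfkbib kept their direction and call in all 16 alternatives. The number called among the 10 genes was 2 to 4. The number of all genes called was 1006 to 1889 when 1 sample was left out: 1164 without DMSO 1, 1006 without NBIF 1, 1152 without NBIF 2 and 1153 without NBIF 3. Changes near 0 turned in sign, and the cause was not tested. After median-ratio scaling Nfkb2 was at -0.0273, Rela at -0.0360 and Nfkbie at -0.0287, and after quantile normalization Rela was at -0.0390 and Nfkbie at -0.0428. The median of all genes tested was lower in these fits as well, at 0.00776 and 0.0169, beside 0.0439 in the main fit. Over the fits that each left out 1 sample, the log2 change ranged from -0.0200 to 0.0558 for Nfkb2, from -0.0496 to 0.0697 for Rela, from -0.0824 to 0.0187 for Relb and from -0.0103 to 0.0242 for Nfkbie. The NBIF minus DMSO difference in share ranged from -0.0857 to 0.292 percentage points for Rela and from -0.234 to 0.0932 for Relb, and that of the log2 ratio of IkB to subunit transcripts from -0.0642 to 0.00864. On the geometric scale that ratio differed by 0.124 in place of -0.0323.

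The labels do not say whether same-numbered samples of the groups were paired. Their deviations from the group means correlated at 0.0784, 0.126 and 0.0355 across 9936 genes. Differently numbered samples ranged from -0.177 (DMSO 2 with NBIF 1) to 0.0974 (DMSO 3 with NBIF 1). Pairing was not tested. With the replicate number as a block, 1632 of all genes and 3 of the 10 genes were called. The block lost the calls of Ikbkg (adjusted p = 0.0834), Itch (0.0701) and Tlr2 (0.0727).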
